A study of Drosophila melanogaster with 6 samples.

Results

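Hayan, psh and 3 genes without a known function stand next to each other on the X chromosome of Drosophila melanogaster, and RNA of all 5 was more abundant in S2 cells that carried a transgene for the Hox protein AbdA. The genes were CG6361 (now Hayan), psh, CG15046, CG15044 and CG15043, 5 of the 14770 genes in the count tables. They were found by symbol and had been chosen by their measured rise in S2-AbdA over S2 and by their places side by side. Their values in that comparison are therefore given as a description, without a test.

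Hayan and Psh are secreted serine proteases with an amino-terminal clip domain, encoded by closely related genes. In fly blood, proteases of this kind activate each other in sequence after infection or injury. Psh senses proteases released by microbes and leads to cleavage of the ligand Spätzle, which binds the receptor Toll. Hayan acts in melanization, the deposition of pigment at wounds by phenoloxidases, and also takes part in Toll activation.

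Polyadenylated RNA was sequenced from S2-DRSC cells, a line from late embryos (S2, wild type in the labels, 4 libraries), and from S2-DRSC-HA::AbdA cells, the same line stably transfected with HA-tagged AbdA (S2-AbdA, 2 libraries). AbdA is a transcription factor that patterns the abdomen. Cells of both groups had been exposed to 10 µM copper sulphate for 24 h. A line transfected without AbdA was not analysed here, so AbdA and the transfection cannot be told apart, and no source used here gives the promoter of the transgene or the number of clones behind the line. The labels connect the authors' table of changed genes with replicates 1 and 2 of each group. S2 replicates 3 and 4 were therefore kept as a separate set, and each set holds 2 libraries. That replicates came from separate cultures is not stated, so the p-values measure the spread between these libraries, which may be technical.

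Libraries held 34233132 to 69858688 counts. Levels are given as CPM, a gene's counts per 1000000 counts of its library, and 3 counts, used as the floor, were 0.0429 to 0.0876 CPM. The transgene's own gene, abd-A, had 17289 and 10909 CPM in S2-AbdA replicates 1 and 2, 29.1 and 52.7 CPM in S2 replicates 1 and 2, 0 counts in S2 replicate 3 and 3 counts in S2 replicate 4. All 11 markers of plasmatocytes, the phagocytic blood cells that S2 cells resemble, were tested. Their summed level was 8428 to 10056 CPM in S2 replicates 1 and 2, 2066 to 5940 CPM in S2 replicates 3 and 4 and 6065 to 6976 CPM in S2-AbdA. Against S2 replicates 1 and 2, 5 of these markers fell in S2-AbdA and 0 rose (edgeR's quasi-likelihood test, Benjamini-Hochberg adjusted p under 0.10 over 9375 genes, the threshold used throughout), with 0 rising at an unadjusted p under 0.05 or by DESeq2 as well, beside 7.36% lower and 3.0% higher among all tested genes. Against S2 replicates 3 and 4, 3 of the 11 rose and 1 fell, beside 14.7% and 17.1% of all tested genes. The 8 fat body markers summed to 1.43 to 2.35 CPM in S2-AbdA and to 0.333 to 2.75 CPM in S2, with Lsp1alpha at 3 counts or fewer in every library. The 5 neuronal markers summed to 102 to 130 CPM in S2-AbdA, 63.0 to 92.8 CPM in S2 replicates 1 and 2 and 36.6 to 96.3 CPM in S2 replicates 3 and 4. Of these 5, all tested, 0 rose in either comparison, and 1 fell against S2 replicates 1 and 2 (0 by DESeq2). Of the 3 fat body markers tested, 1 rose against S2 replicates 3 and 4 (0 by DESeq2), and 0 were called against S2 replicates 1 and 2. The shares of all tested genes are those given above. The part of other cell types in the results was not tested.

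The run covers 14182 bases of the X chromosome (dm3, 18374016 to 18388197). In order of position its genes are CG6361 (gene number 32831, 18374016 to 18377805), psh (32832, 18378515 to 18380954), CG15046 (32833, 18381681 to 18383519), CG15044 (32834, 18385216 to 18386029) and CG15043 (32835, 18387434 to 18388197). The gaps between neighbours are 709, 726, 1696 and 1404 bases. A later annotation places all 5 genes on the minus strand, so they are read in the same direction, with CG15043 upstream and Hayan downstream. None of the 5 overlaps another of them there. An antisense RNA of that annotation, CR45714, overlaps Hayan on the other strand. A pseudogene of that annotation, CR46403, also lies within the run on the minus strand, overlaps none of the 5 genes and was not analysed here. Whether counting respected strand is unstated, so reads of Hayan and of that RNA cannot be told apart. How the counting treated reads shared between the related genes Hayan and psh is not stated either.

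In S2 cells the protease genes and their neighbours stood at or under 1.46 CPM, apart from CG15043, and in S2-AbdA all 5 were expressed. Hayan stood at 0.876, 0.594, 1.46 and 1.17 CPM in S2 replicates 1 to 4 and, with AbdA, at 16.7 and 15.7 CPM. Every S2-AbdA value of Hayan lay above every S2 value. The log2 fold change of Hayan in S2-AbdA was 4.43 (SE 0.48) over S2 replicates 1 and 2 and 3.26 (SE 0.44) over S2 replicates 3 and 4. In bulk RNA, a change in the number of cells that use a gene cannot be told apart from a change in the RNA per cell.

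The gene psh was at the floor in S2 cells. It had 3, 2, 3 and 2 counts in S2 replicates 1 to 4 and 170 and 154 counts in the S2-AbdA libraries, or 3.59 and 3.32 CPM. The groups did not overlap. The ratio of the pooled rates was 53.9 over the 5 counts of S2 replicates 1 and 2, with a 95% counting interval of 22.9 to 167. Over the 5 counts of S2 replicates 3 and 4 that ratio for psh was 85.6 (36.3 to 265). Counting intervals cover counting error only. Because psh had no more than 3 counts in any S2 library, it entered the fit through S2-AbdA alone.

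CG15046 showed the widest difference of the run. It had 8, 10, 5 and 16 counts in S2 replicates 1 to 4, at most 0.234 CPM, and 7766 and 7636 counts in S2-AbdA, or 164 and 165 CPM. The log2 fold change of CG15046 was 9.42 (SE 0.54) over S2 replicates 1 and 2, and 9.66 (SE 0.54) over S2 replicates 3 and 4. Among all 9375 tested genes it had rank 1 by log2 fold change in the first of these comparisons and rank 3 in the second. The S2 levels rest on few counts, and by counts alone the ratio of CG15046 over S2 replicates 1 and 2 was 712 (95% counting interval 450 to 1201).

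CG15044, upstream of CG15046, had 9, 7, 2 and 7 counts in S2 replicates 1 to 4, and stood at 27.3 and 23.4 CPM in S2-AbdA. Its highest S2 level was 0.263 CPM, far under the lower S2-AbdA library. The log2 fold change of CG15044 was 6.87 (SE 0.52) over S2 replicates 1 and 2 and 8.15 (SE 0.57) over S2 replicates 3 and 4. CG15043, at the upstream end of the run, had the highest level of the 5 in every S2 library, also per kilobase of exon, at 5.67, 3.06, 4.5 and 2.22 CPM in S2 replicates 1 to 4. In S2-AbdA it stood at 28.1 and 18.5 CPM, again above all S2 libraries. Its log2 fold changes, 2.38 (SE 0.52) over S2 replicates 1 and 2 and 2.39 (SE 0.52) over S2 replicates 3 and 4, were the smallest of the run.

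**Figure D1:**
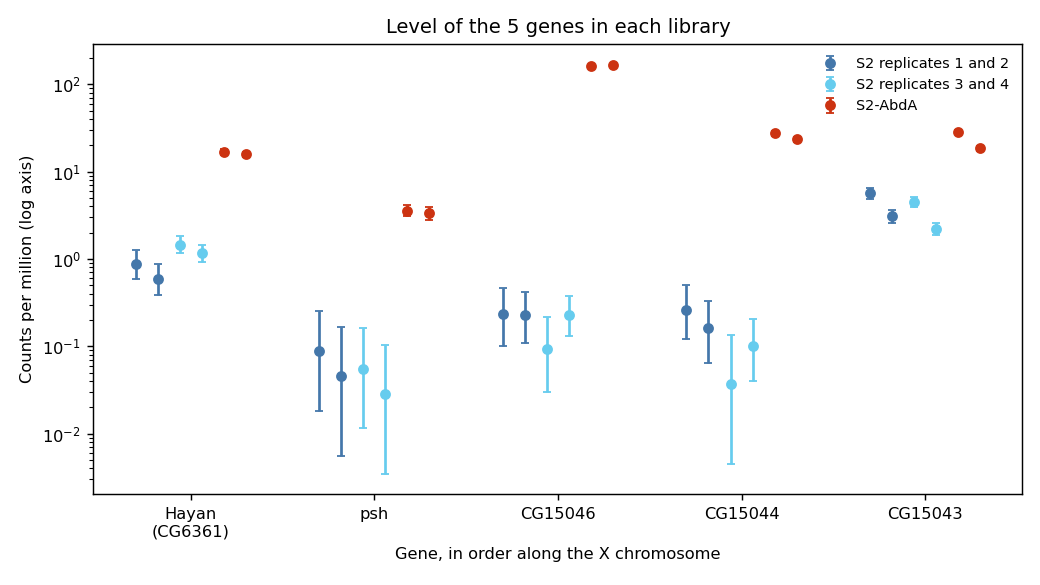
Level of each gene in each library, in CPM on a log axis, with 95% Poisson counting intervals as bars; blue and light blue points are S2 libraries and red points S2-AbdA libraries. In all 5 genes the S2-AbdA points lie above the S2 points, with CG15046 at 164 and 165 CPM in S2-AbdA and psh at no more than 0.0876 CPM in S2.

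Over all 9375 tested genes, 281 were called higher in S2-AbdA than in S2 replicates 1 and 2 (3.0%), and 1377 higher than in S2 replicates 3 and 4 (14.7%). The 5 genes are among both sets of calls because they were chosen from these comparisons, which share the S2-AbdA libraries, and nothing is read from their number. The S2-AbdA libraries lay above all 4 S2 libraries in 1568 tested genes (16.7%), the 5 among them. In the authors' deposited table of 2122 genes, all 5 are listed. The column of that table that holds the ratio, turned to S2-AbdA over S2, gives 9.45 for CG15046, 6.92 for CG15044, 5.68 for psh, 4.48 for Hayan and 2.46 for CG15043 on the log2 scale. In the authors' deposited table these have ranks 1, 6, 13, 30 and 132 by rise.

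The nearest genes on either side of the run did not pass the test or had too few counts. Downstream, CG32547 ends 441 bases from Hayan and had 1 to 4 counts in the S2 libraries and 9 and 5 counts in S2-AbdA, too few to be tested. Its S2-AbdA levels, 0.190 and 0.108 CPM, lay above its highest S2 level, 0.0914 CPM. The next rows on that side, CR43842, CG43843 and CG43841, had at most 1 count in any library. Upstream, GalNAc-T2 (now Pgant7), which encodes an enzyme that starts O-linked glycosylation, begins 1011 bases from CG15043. It stood at 183 and 190 CPM in S2 replicates 1 and 2, 370 and 260 CPM in S2 replicates 3 and 4 and 236 and 205 CPM in S2-AbdA. Its log2 values in S2-AbdA were 0.20 (SE 0.38) against S2 replicates 1 and 2 and -0.89 (SE 0.38) against the other S2 set, neither past the test (adjusted p = 0.948 and 0.111).

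Beyond GalNAc-T2, Rad51D (now Xrcc2), a DNA repair gene, had log2 fold changes of 0.51 (SE 0.43) and -0.04 (SE 0.42) over these S2 sets. Wnt5, which encodes a secreted Wnt ligand, had values of 0.58 (SE 0.40) and 0.37 (SE 0.40). Neither gene passed the test, although Rad51D, at 3.29 and 2.78 CPM in S2-AbdA, lay narrowly above its highest S2 level, 2.74 CPM. Ggt-1, whose name is that of gamma-glutamyl transpeptidase, rose over S2 replicates 1 and 2 by 2.55 (SE 0.59, adjusted p = 0.0185), but over S2 replicates 3 and 4 the value was 0.29 (SE 0.54, adjusted p = 0.70), and the 4 S2 libraries overlapped those of S2-AbdA. The run is bounded by genes that were not called higher in both comparisons, so these values describe how it was delimited.

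**Figure D2:**
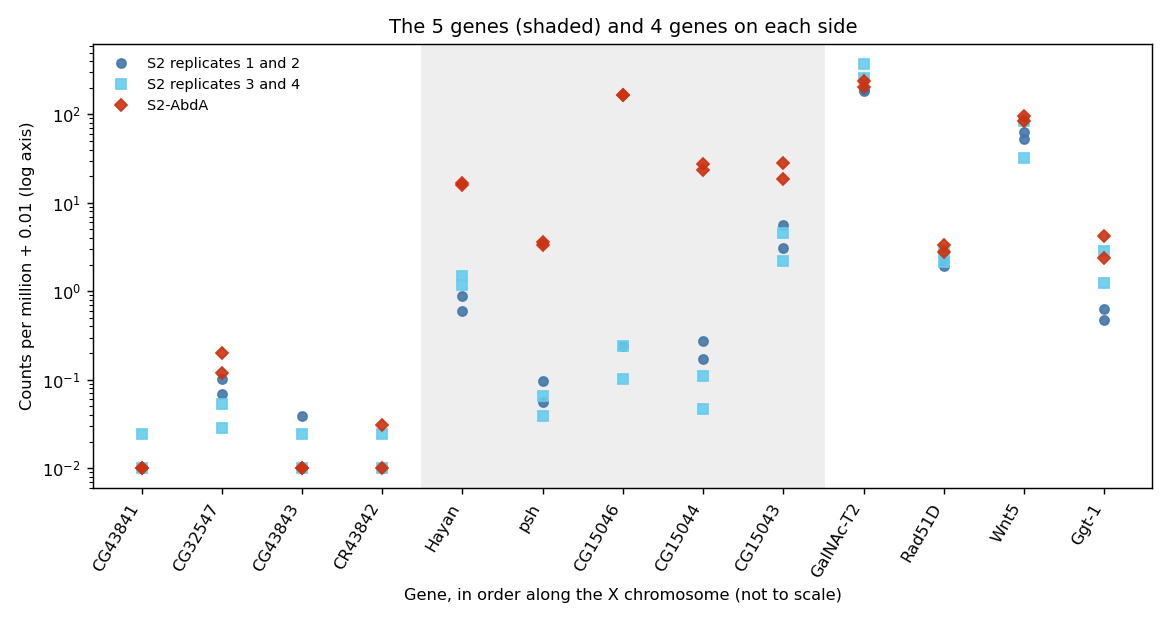
Levels of the 5 genes (shaded) and of the 4 rows on each side in every library, in CPM plus 0.01 on a log axis, in chromosomal order and not to scale; each point is a library, coloured by set. The S2-AbdA points stand apart from the S2 points inside the shaded run, while GalNAc-T2, at 183 to 370 CPM over all libraries, shows S2-AbdA points among those of S2. Outside the run, the S2-AbdA points also lie above all S2 points, by narrower margins, in CG32547 (0.190 and 0.108 CPM, S2 at most 0.0914) and Rad51D (3.29 and 2.78 CPM, S2 at most 2.74).

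Over the assembled chromosome arms, the run was the longest stretch of neighbouring rows that all rose against S2 replicates 1 and 2. There were 30 stretches of 2 such rows, 5 of 3 and this 1 of 5. Against S2 replicates 3 and 4, where more genes rose, 149 stretches of 2, 27 of 3, 13 of 4 and 2 of 5 were found. The run was picked for this property, and the counts are a description.

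The members changed their order as well as their level. Per kilobase of exonic length in the later annotation, CG15043 led in S2 replicates 1 and 2 with 4.83 ± 2.04 CPM per kb (SD, n = 2), while Hayan, CG15044, CG15046 and psh stood at 0.305 ± 0.0829, 0.257 ± 0.0886, 0.127 ± 0.00202 and 0.0405 ± 0.018 CPM per kb. Hayan and CG15044 overlapped in that set. In S2 replicates 3 and 4, CG15043 (3.72 ± 1.78) again led, ahead of Hayan (0.547 ± 0.0847). There CG15046 (0.0885 ± 0.0531) and CG15044 (0.0835 ± 0.0543) stood the other way round and overlapped. The S2 order of CG15044, CG15046 and psh rests on 2 to 16 counts per library. In S2-AbdA, CG15046 led with 90.4 ± 0.383 CPM per kb, ahead of CG15044 (30.8 ± 3.41), CG15043 (25.8 ± 7.55), Hayan (6.73 ± 0.292) and psh (2.10 ± 0.113). The levels of CG15044 (33.2 and 28.4 CPM per kb) and CG15043 (31.2 and 20.5 CPM per kb) overlapped, and the other neighbours in this order did not. Hayan stood above psh per kilobase in every library.

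As shares of the counts over the 5 genes, CG15043 held 59.2% to 79.5% in the S2 libraries and 11.7% and 8.19% in S2-AbdA. CG15046 held 1.51% to 6.11% in S2, and 68.4% (95% Wilson interval 67.5% to 69.2%) and 73.0% (72.2% to 73.9%) in S2-AbdA. The share of psh was small throughout, at 0.763% to 1.23% in S2 and 1.5% and 1.47% in S2-AbdA, and the S2-AbdA intervals lay within those of each S2 library. Hayan's share was 6.97% and 6.96% in S2-AbdA, below the 12.3% and 14.5% of S2 replicates 1 and 2 and the 23.8% and 31.3% of S2 replicates 3 and 4. In all, the run took 3.75 to 7.13 CPM in S2 and 240 and 226 CPM in S2-AbdA.

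**Figure D3:**
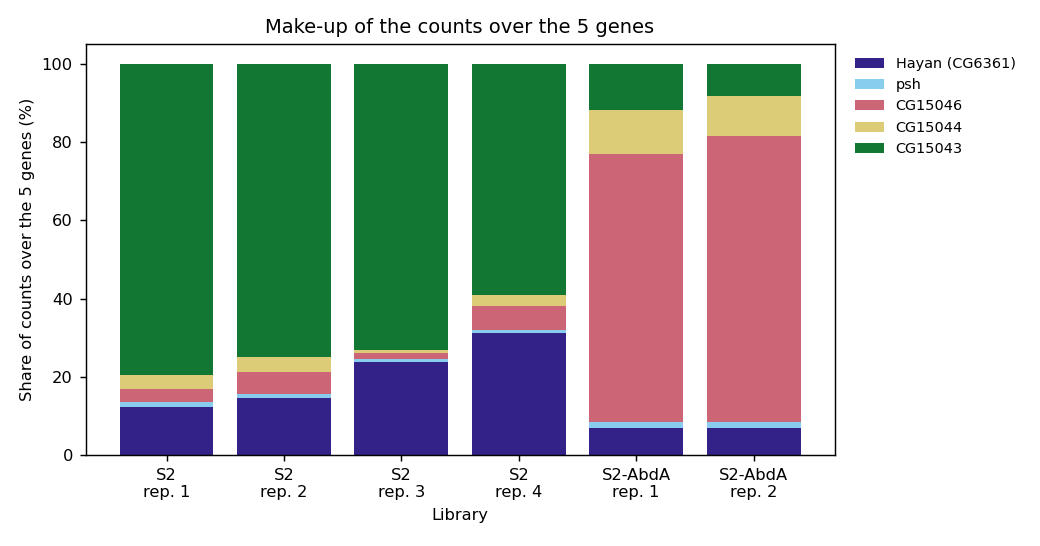
Share of each gene in the counts over the 5 genes, in percent, as stacked bars for each library. CG15043 makes up 59.2% to 79.5% of the bars of S2, and CG15046 makes up 68.4% and 73.0% of those of S2-AbdA.

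Between the S2 sets, Hayan passed the test and the other 4 genes did not. This comparison was not used to choose them, but all 4 S2 libraries also entered those that were, so it is not wholly independent of the choice. Hayan was higher in S2 replicates 3 and 4, at 1.32 ± 0.204 CPM against 0.735 ± 0.20 CPM in replicates 1 and 2 (SD, n = 2), with a log2 difference of 1.16 (SE 0.45, adjusted p = 0.0770 by edgeR). All values of Hayan in replicates 3 and 4 lay above those in replicates 1 and 2. Leaving out S2 replicate 1, 2 or 3 ended the call (adjusted p = 0.165, 0.452 and 0.207), as did library size alone (0.135) and upper quartile scaling (0.108), and adjusted p ranged from 0.00616 to 0.452 over all alternatives. The values of CG15046 (-0.24, SE 0.53) and CG15043 (-0.01, SE 0.50) were not past the test. CG15044 (-1.27, SE 0.63) and psh (-0.37, SE 0.85) entered the fit through S2-AbdA alone, did not pass the filter among S2 libraries alone and have too few counts there for a call to be read. Without S2 replicate 4 the value of CG15044 was -1.91 (adjusted p = 0.0580), resting on 2 counts in S2 replicate 3. Of all tested genes, 18.1% were higher and 18.9% lower in replicates 3 and 4, so 1 call among 5 genes lies close to the background. On library size alone the calls between the S2 sets split into 760 higher and 1738 lower, and with upper quartile scaling into 1170 and 1981.

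The genes around Hayan and psh in the Toll and melanization cascades moved in both directions. Of 46 listed genes, 39 were tested. Against S2 replicates 1 and 2, 3 rose (7.69%), 9 fell (23.1%) and 27 did not pass the test, beside 3.0% and 7.36% of all genes. Their median log2 fold change was -0.28, against -0.02 over all genes. Against S2 replicates 3 and 4, 13 rose (33.3%), 4 fell (10.3%) and 22 did not pass the test, beside 14.7% and 17.1% of all genes, with a median of 0.65 against -0.01. Some rises are of genes that entered the fit through S2-AbdA alone, so that only a rise could be called. These include gd and IM23 in both comparisons, and IM1 in the comparison with S2 replicates 3 and 4. On library size alone, all genes split into 1536 higher and 779 lower in that comparison, with their median log2 fold change at 0.30, and 17 of the listed genes rose. The listed genes themselves differed between the S2 sets, with 18 lower (46.2%) and 1 higher (2.56%) in S2 replicates 3 and 4, beside 18.9% and 18.1% of all tested genes.

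At the top of the Toll cascade, modSP, the protease that links microbe recognition to the proteases downstream, rose in both comparisons. It stood at 0.701 and 0.503 CPM in S2 replicates 1 and 2, at 0.241 and 0.172 CPM in S2 replicates 3 and 4, and at 3.48 and 4.34 CPM in S2-AbdA. Its log2 fold changes were 2.67 (SE 0.48, adjusted p = 0.00422) and 3.91 (SE 0.51, adjusted p = 6.11e-04). The gene of the fungal recognition protein GNBP3 fell over S2 replicates 1 and 2 (-1.31, adjusted p = 0.0928) and was higher than in S2 replicates 3 and 4 (3.5). The fall of GNBP3 was lost without S2 replicate 1, S2 replicate 2 or S2-AbdA replicate 1 (adjusted p = 0.35, 0.292 and 0.815). It was also lost on library size alone (adjusted p = 0.214), at a log2 fold change of -1.28. The protease gene grass, next in the chain, had values of -0.55 (SE 0.39) and -0.60 (SE 0.39), not past the test. SPE, which cleaves Spätzle, stood at 0.316 and 0.971 CPM in S2-AbdA and overlapped the S2 libraries, with log2 fold changes of 0.66 (SE 0.62, adjusted p = 0.801) and 2.28 (SE 0.68, adjusted p = 0.0383). Leaving out S2 replicate 3 or S2-AbdA replicate 2 ended the second of these calls (adjusted p = 0.11 and 0.408).

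The ligand gene spz stood at 692 and 671 CPM in S2 replicates 1 and 2, 104 and 117 CPM in S2 replicates 3 and 4, and 318 and 476 CPM in S2-AbdA. S2-AbdA thus lay between the S2 sets, and the log2 fold changes of spz were -0.81 (adjusted p = 0.253) and 1.52 (adjusted p = 0.0161). The first became a fall without S2 replicate 3 or 4, and also with only the compared sets fitted (-0.79, adjusted p = 0.0405 by edgeR). The second was lost without S2-AbdA replicate 2. The receptor gene Tl fell over S2 replicates 1 and 2 (-1.75, SE 0.35, adjusted p = 0.00803), at 13.1 and 12 CPM in S2-AbdA, and had a value of -0.23 (SE 0.35) over S2 replicates 3 and 4. Among the Toll-induced peptide genes, IM23 (now BomBc1) had 0, 4, 1 and 0 counts in the S2 libraries and stood at 0.359 and 0.712 CPM in S2-AbdA (3.31, adjusted p = 0.0356, and 5.39, adjusted p = 0.00677). The call over S2 replicates 1 and 2 was lost without S2 replicate 1 (adjusted p = 0.159). For IM1 (now BomS1) the log2 fold change was 1.42 (adjusted p = 0.164) in the first comparison and 4.15 (adjusted p = 0.00244) in the second. For IM4 (now Dso1), another peptide gene, it was -0.05 (adjusted p = 0.997) in the first and -2.26 (adjusted p = 0.0066) in the second. IM23 and IM1 entered the fit through S2-AbdA alone, so only a rise of these genes could be called.

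On the melanization side, 0 of 9 tested genes rose in either comparison by edgeR, and likewise 0 at an unadjusted p under 0.05 and 0 by DESeq2. Among all tested genes 3.0% and 14.7% rose in these comparisons. Against S2 replicates 1 and 2, 4 of the 9 fell (44.4%), beside 7.36% of all genes. They were proPO-A1, proPO45, yellow-f and yellow-f2. Between the S2 sets these 4 genes also passed the test, with replicates 3 and 4 lower (adjusted p = 0.00222, 0.0579, 0.0393 and 0.00129 by edgeR). Of all tested genes, 18.9% were lower there. Set against replicates 3 and 4, S2-AbdA showed no call in these 4 genes (adjusted p = 0.365, 0.411, 0.552 and 0.206). In that comparison 2 other genes of the 9 fell (22.2%), near the 17.1% of all genes. The protease genes Sp7 and MP1, which act in phenoloxidase activation, fell over S2 replicates 3 and 4, with log2 fold changes of -1.58 (adjusted p = 0.0182) and -1.61 (adjusted p = 0.0205). Without S2-AbdA replicate 2 these calls were lost (adjusted p = 0.122 and 0.124). Over S2 replicates 1 and 2 their values of -1.0 and -1.0 were not past the test (adjusted p = 0.168 and 0.195), but were without S2 replicate 3 or S2 replicate 4. With only the compared sets fitted they also passed (-0.98 and -0.97, adjusted p = 0.0276 and 0.0113 by edgeR). The prophenoloxidase gene proPO-A1 (now PPO1) stood at 84.7 and 14.1 CPM in S2 replicates 1 and 2, 1.98 and 0.816 CPM in S2 replicates 3 and 4, and 0.612 and 1.25 CPM in S2-AbdA. It fell over S2 replicates 1 and 2 (-5.76, SE 0.88, adjusted p = 0.00171), a call that ended when S2 replicate 3 or 4 was left out (adjusted p = 0.192 and 0.142) or when only the compared sets were fitted (-5.73, adjusted p = 0.153). Against S2 replicates 3 and 4 it had -0.98 (adjusted p = 0.365). Counts of proPO45 (now PPO2) came mainly from S2 replicate 1, and its fall (-4.14, adjusted p = 0.0356) was lost without that library (-1.25, adjusted p = 0.905), without S2 replicate 3 (0.341) and without S2 replicate 4 (0.257). The fall of proPO45 was also lost on library size alone (adjusted p = 0.126) and with only the compared sets fitted (0.275). The lamellocyte prophenoloxidase gene proPO59 (now PPO3) had values of -0.41 and -0.03, not past the test. Spn28Dc, a serpin gene that restrains phenoloxidase, had 0.34 (adjusted p = 0.876) over S2 replicates 1 and 2 and rose by 3.34 (adjusted p = 6.59e-04) over S2 replicates 3 and 4.

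The embryonic proteases gd, snk and ea act in sequence upstream of Spätzle in the early embryo. Over S2 replicates 1 and 2 their genes differed, where gd rose, snk fell and ea did not pass the test. All 3 were higher than in S2 replicates 3 and 4. The gene gd had 2, 5, 1 and 3 counts in the S2 libraries and stood at 0.759 and 0.734 CPM in S2-AbdA, with log2 fold changes of 2.99 (SE 0.58, adjusted p = 0.00603) and 4.17 (SE 0.63, adjusted p = 0.00115). Because gd entered the fit through S2-AbdA alone, only a rise of it could be called. The gene snk fell over S2 replicates 1 and 2, from 13.1 and 10.9 CPM to 0.316 and 0.906 CPM (-4.32, SE 0.66, adjusted p = 0.00164), and was higher than in S2 replicates 3 and 4 (2.11, adjusted p = 0.0652). The second call of snk was lost without S2 replicate 4 (adjusted p = 0.177) and without S2-AbdA replicate 2 (adjusted p = 0.439). For ea the first comparison gave 0.99 (adjusted p = 0.312) and the second 2.75 (adjusted p = 0.00515). In levels, gd and ea stayed under 1 CPM in every library.

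**Figure D4:**
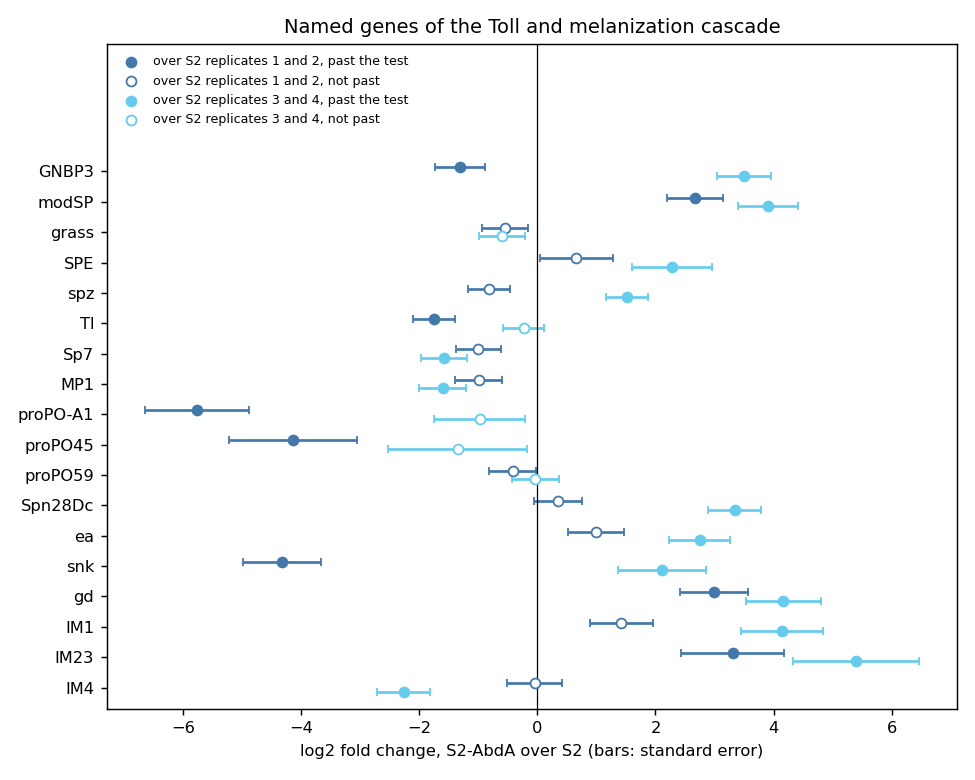
Log2 fold changes of named genes of the Toll and melanization cascades in S2-AbdA over S2 replicates 1 and 2 (dark) and over S2 replicates 3 and 4 (light), with standard errors as bars; filled points passed the test and open points did not. Both values of modSP (2.67 and 3.91) lie right of 0, while those of spz (-0.81 and 1.52) and snk (-4.32 and 2.11) lie on opposite sides.

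The genes whose profile was most like the mean of the run over the 6 libraries were taken by the smallest Euclidean distance between centred log2(CPM + 0.1) values. They were CG11529 (distance 0.72), CG15067, now BomBc2, a gene of the Toll-induced Bomanin peptides (0.74), CG13921 (1.20), Timp, which encodes an inhibitor of matrix metalloproteinases (1.33), and the chitinase gene Cht2 (1.33). For comparison, the members themselves lay at 1.02 (psh) to 4.38 (CG15046) from their mean. CG15067 had 3, 2, 2 and 2 counts in the S2 libraries and stood at 4.26 and 3.69 CPM in S2-AbdA, levels near those of psh. CG11529 had 1, 1, 1 and 3 counts in S2 and stood at 4.28 and 3.34 CPM in S2-AbdA. None of these 5 genes lies on the X chromosome, and CG13921 and Cht2 are themselves neighbours on chromosome arm 3L. The likeness rests on a step between 4 and 2 libraries and on counts near the floor in S2, and it is a description.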

How the data were processed

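RNA counts of 6 libraries were used. For each library the authors deposited a file of raw read counts for every gene, without normalization. The submitters' processing notes name CASAVA, edgeR and the build dm3. No source used here states the aligner, the counter or the strand setting. The authors also deposited a table with log2 values, p-values and false discovery rates (FDR under 0.10). Its column headed logConc correlated at -0.946 across genes with the log2 change computed here in S2-AbdA against replicates 1 and 2 of S2, so it was taken as the ratio, with its sign turned. The column headed logFC correlated at 0.998 with the mean log2 CPM.

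Counts were fitted in R 4.3.3 with edgeR 4.0.16 (quasi-likelihood F test, robust, trimmed-mean scaling) on all 6 libraries with a term for each of the 3 sets. Each SE of a log2 fold change was derived as its absolute value divided by the square root of the F statistic. Such an SE is approximate, above all for genes with few counts in S2. The filter filterByExpr left 9375 genes, and p-values were Benjamini-Hochberg adjusted over all of them. Alternatives used DESeq2 1.42.0, other scalings, filters and thresholds, and left out libraries. Tables were made with Python 3.11.15, pandas 2.3.3 and scipy 1.17.1. Current names were found through the gene number, with 14468 of 14770 genes matched. Strands and lengths over exons were then taken from a later annotation (Ensembl, BDGP6) through the current name. Apart from these lengths, its coordinates served only to find genes within the run and their overlaps. No 2 libraries of the same set were copies (chi-square per gene 74.3 to 812).

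The 5 genes and the lists were chosen with earlier results of these data known. Named genes were the members, 4 rows on each side, up to 10 listed genes past the test by smallest adjusted p, 10 fixed cascade genes and the 5 most alike profiles. GNBP3, modSP, Spn28Dc, gd, snk, proPO-A1, IM1, ea, IM4 and IM23 were the 10 past the test.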

Additional observations from a re-analysis of the deposited data

Results flagged for a closer look

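CG15046 stood at 0.0926 CPM (5 counts) in S2 replicate 3, apart from the other S2 libraries, which lay at 0.229 to 0.234 CPM. The 95% Poisson interval of the low value was 0.0301 to 0.216 CPM, and that of S2 replicate 4, in the same set, 0.131 to 0.372 CPM, so the intervals overlap. Chance marks about 1 in 20 groups in this way, and 5 genes were examined.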

How the results depend on the processing

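As a description, since the choice used these comparisons, the log2 fold changes over S2 replicates 1 and 2 ran over the alternatives from 3.72 to 4.72 for Hayan, 5.24 to 6.12 for psh, 9.37 to 9.55 for CG15046, 6.56 to 7.41 for CG15044 and 2.02 to 2.88 for CG15043. With all 4 S2 libraries as 1 group CG15043 had 2.38 and was not called, and in that setting 34 genes rose and 12 fell, with 0 and 0 of the cascade list by edgeR (5 and 4 at an unadjusted p under 0.05). Hayan's call between the S2 sets was lost (0 genes higher) on library size alone, with upper quartile scaling, at a threshold of 0.05 and with the replicate block.

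Other counts moved by over 1.5 times. On library size alone, against S2 replicates 3 and 4, 779 genes fell in S2-AbdA, and 760 were higher in replicates 3 and 4 than in 1 and 2 (30.4% of calls in place of 48.9%). With only the compared sets, 758 rose against replicates 1 and 2 and 608 fell against replicates 3 and 4. At 0.05, 912 rose and 917 fell against replicates 3 and 4, and 864 were higher between the S2 sets. Deviations of same-numbered S2 and S2-AbdA libraries showed almost no correlation across genes (-0.00683), which does not settle whether libraries were prepared in pairs. With the replicate block 779 rose and 539 fell against replicates 3 and 4, 386 were higher and 1092 lower between the S2 sets, and the calls of snk, SPE and Sp7 against replicates 3 and 4 were lost. The cause was not tested.

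Leaving out each library in turn gave 131 to 762 rises and 480 to 1067 falls against S2 replicates 1 and 2, 698 to 2782 and 356 to 3210 against replicates 3 and 4, and 150 to 3237 higher and 898 to 3117 lower between the S2 sets, where 0 to 1 of the 5 genes were higher and 0 to 1 lower. A library left alone in its set is assumed to vary like the others. The cascade list gave 2 to 4 rises and 6 to 13 falls, and 9 to 18 and 2 to 8 against replicates 3 and 4. Of the 5 most alike genes, 2 were shared with a pseudocount of 1 CPM and 2 by Pearson correlation. Depth limits psh, CG15046 and CG15044 in S2, where counts lay at 2 to 16.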

Other observations

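The S2-AbdA libraries differed in abd-A, at 17289 and 10909 CPM, a log2 ratio of replicate 2 over replicate 1 of -0.66. In the same ratio CG15043 had -0.61, CG15044 -0.23, psh -0.11, Hayan -0.09 and CG15046 0.01. With 2 libraries these are values without a test.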
